A study of Mus musculus with 20 samples.

Results

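The colony-stimulating factors and their receptors were followed in bone marrow-derived macrophages (BMDMs) as 7 genes, Csf1, Csf2, Csf3, Csf1r, Csf2ra, Csf2rb and Csf3r, taken by symbol from the 21963 gene entries of the count table. RNA was sequenced in 20 libraries of cultured cells. The groups were 4 untreated WT libraries, 5 WT libraries given zymosan for 3 h, 4 WT libraries loaded with BAPTA-AM (10 µM) and given zymosan, 4 untreated Mcu-/- libraries and 3 Mcu-/- libraries given zymosan. Zymosan, a yeast cell wall preparation that macrophages bind and engulf, was given at 2 particles per cell. This dose and that of BAPTA-AM are those the study's paper gives for its qPCR assays. Its sequencing methods state no dose. BAPTA-AM is a calcium chelator that enters cells, and Mcu encodes the pore of the mitochondrial calcium uniporter. The mice were 15 to 25 weeks old, the Mcu-/- cells came from mice with a floxed Mcu gene and Cre under the Cx3cr1 promoter, which is active in the monocyte and macrophage lineage, and no BAPTA-AM library was made from Mcu-/- cells. All cells had been grown in medium conditioned by L929 cells, which is a source of CSF-1 protein, so every group had been exposed to this factor before the RNA was taken.

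CSF-1 (M-CSF), GM-CSF and G-CSF are secreted proteins that control the survival, growth and activity of myeloid cells, and they are encoded by Csf1, Csf2 and Csf3. CSF-1 signals through CSF1R, a receptor tyrosine kinase on which macrophages depend. GM-CSF binds an alpha chain encoded by Csf2ra together with the common beta chain encoded by Csf2rb, which IL-3 and IL-5 receptors share, and G-CSF binds a homodimer encoded by Csf3r that is best known from neutrophils. In the mouse a close relative of the common beta chain, encoded by Csf2rb2, serves the IL-3 receptor.

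Cytokine mRNAs of this family are known for AU-rich elements, stretches of repeated ATTTA in the 3′ untranslated region through which the transcripts are degraded. The stretch of 30 bases richest in ATTTA is shown for each of the 3 ligand genes. These letters were more frequent in Csf2 and Csf3 than in the receptor genes. Csf1, with 1.89 per kb of the region, was close to its receptor gene Csf1r with 1.80. Each stretch was read from mm10 with GENCODE M21 transcripts, in the sense of the gene, with ATTTA in capitals. The sites lie at chr3:107741109-107741138 on the minus strand for Csf1, chr11:54247329-54247358 on the minus strand for Csf2 and chr11:98702984-98703013 on the plus strand for Csf3.
Csf1: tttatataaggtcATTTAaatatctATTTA
Csf2: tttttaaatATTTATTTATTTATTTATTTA
Csf3: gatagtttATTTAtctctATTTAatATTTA

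The 3′ untranslated region held 9 pentamers in 317 bases in Csf2, 6 in 669 bases in Csf3 and 4 in 2111 bases in Csf1, counting overlapping matches. The nonamer TTATTTATT occurred 4 times in Csf2 and 0 times in the other members. Csf1r held 3 pentamers in 1669 bases, whereas Csf2ra, Csf2rb and Csf3r held 0. Of 20749 genes with a 3′ untranslated region in the annotation, 62.7% held at least 1 pentamer, 33.2% at least 3 and 19.6% at least 5. The nonamer was held by 7.12%. A match is a run of letters and was not tested for function.

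A promoter sequence was at hand in the RefSeq table of GRCm38.p6 for 5 of the 7 genes looked for, which were 6 members and Csf2rb2. Of these, 2 are printed because the reading of their start agreed between RefSeq and GENCODE to the base, Csf1 as a ligand and Csf2rb2 as the relative of Csf2rb whose level differed most between the genotypes. Each is the 250 bases before the start, chr3:107760470-107760719 for Csf1 and chr15:78305722-78305971 for Csf2rb2, both on the minus strand. Capitals mark letters searched on both strands, GGNNNTTCC as in NF-kB sites and GAGGAA as in PU.1 sites.
Csf1: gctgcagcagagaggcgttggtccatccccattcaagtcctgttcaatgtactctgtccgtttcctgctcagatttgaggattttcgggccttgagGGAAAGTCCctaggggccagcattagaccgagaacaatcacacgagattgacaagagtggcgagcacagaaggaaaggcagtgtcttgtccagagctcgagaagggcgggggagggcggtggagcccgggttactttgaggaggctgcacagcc
Csf2rb2: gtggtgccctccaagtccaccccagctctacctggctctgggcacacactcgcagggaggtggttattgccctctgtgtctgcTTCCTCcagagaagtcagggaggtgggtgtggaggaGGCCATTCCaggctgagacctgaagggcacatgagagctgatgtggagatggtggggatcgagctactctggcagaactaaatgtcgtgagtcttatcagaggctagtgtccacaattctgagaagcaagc

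The NF-kB letters lay 154 to 146 bases before the start of Csf1 on the opposite strand and 131 to 123 bases before the start of Csf2rb2 on its own strand. The PU.1 letters lay 167 to 162 bases before the start of Csf2rb2. Among 32851 promoters of the same length, 15.7% held the NF-kB letters and 23.3% the PU.1 letters, so neither match is rare. The letters of the other motifs searched, TGGAAA for NFAT, TGANTCA for AP-1, GATTCCA for the CK-1 element, TTNNGNAA for C/EBP factors and TATAAA for the basal promoter box, were not found in these 2 windows.

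Total counts per library ran from 14.4 to 24.0 M. Normalized counts below are CPM (counts per 1 M of the TMM-scaled library total) times the mean library size of 20.6 M, given as mean ± SD over libraries, and levels of different genes are compared as CPM per kb of exon. A gene was called where edgeR's quasi-likelihood test over 11707 genes and all 20 libraries gave a Benjamini-Hochberg adjusted p under 0.05. The libraries are labelled as biological replicates without saying that each came from its own mouse, so p-values measure the spread between these libraries. Mcu had 126 to 197 normalized counts in the WT and 54.2 to 83.4 in the Mcu-/- libraries. All 8 macrophage markers listed were present in every group, and markers of mast cells and basophils had at most 3 counts in any library (5 of 5 genes). With zymosan, endothelial markers summed to 45.2 to 49.9 CPM in WT and 28.5 to 31.9 in Mcu-/- libraries. B cell markers summed to 30.4 to 36.7 and 12.4 to 13.3 CPM. Between these groups Pecam1 and Cd79b were called lower in Mcu-/- cells (30.3% of all genes) and Cdh5 and Vwf higher (31.8%). The part of such cells in the levels of the members was not tested. Untreated Mcu-/- replicate 4 stood apart, since the chi-square of its counts against the other 3 libraries of its group averaged 212 to 220 over genes, compared with 1.60 to 6.33 in the 28 other pairs within groups. The biological coefficient of variation of the fit was 12.4% with it and 3.56% without it, so results are given with and without this library where they differ. Scaling by library totals instead of TMM lowered the median log2 fold change of all genes by 0.49 in WT zymosan against untreated, by 0.52 in the same comparison in Mcu-/- cells and by 0.43 in BAPTA-AM against untreated cells. Changes in these 3 comparisons are therefore relative to the bulk of genes. In bulk RNA, fewer cells that make a transcript and less of it per cell cannot be told apart.

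Receptor transcripts were abundant in resting macrophages and ligand transcripts were scarce. In untreated WT cells the level of Csf1r was 148 ± 4.65 CPM per kb (n = 4), of Csf2ra 43.2 ± 0.736, of Csf3r 26.1 ± 0.738 and of Csf2rb 15.8 ± 0.812. The level of Csf1 was 0.613 ± 0.198 CPM per kb in the same cells. Csf3 had 1 count and Csf2 0 counts over these 4 libraries. With zymosan the level of Csf1 reached 9.69 ± 0.563 CPM per kb in WT (n = 5) and 18.3 ± 0.585 in Mcu-/- cells (n = 3), below the common beta chain in WT and above it in Mcu-/- cells, where Csf2rb was at 13.3 ± 0.701 and 12.3 ± 0.313. The length used was the union of all annotated exons, 5.281 kb for Csf1 and 7.277 kb for Csf2rb. Lengths of single transcripts were not tried and could change this order.

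Zymosan changed all 6 members that could be tested in WT macrophages. Csf1, Csf3, Csf3r and Csf2ra rose and Csf1r and Csf2rb fell, 4 higher and 2 lower, in a comparison in which 32.4% of all genes were called higher and 36.8% lower. The median log2 fold change of all genes tested was −0.04. Without Mcu-/- replicate 4 the counts were also 4 and 2, against 37.2% and 41.3% of all genes. Scaling by library totals turned the rise of Csf2ra into a log2 fold change of −0.14. In Mcu-/- macrophages the same stimulus gave 2 members higher, Csf1 and Csf3, and 1 lower, Csf2rb, where 34.3% of genes were called higher and 39.4% lower. Without replicate 4 this became 3 higher and 3 lower, with Csf1r higher and Csf2ra and Csf3r lower, where 39.2% of genes were called higher and 42.4% lower.

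Csf1 (chr3:107741048-107760469 in mm10) was the ligand with the most RNA. It had 47.5, 78.7, 90.9 and 49.7 normalized counts in the untreated WT libraries and 1151, 1019, 999, 1079 and 1026 with zymosan. The Mcu-/- libraries had 50.3, 55.0, 71.5 and 189 untreated and 2036, 2016 and 1917 with zymosan. Every zymosan library lay above every untreated library, and the Mcu-/- libraries with zymosan lay above all WT libraries. The log2 fold change with zymosan was 3.97 (SE 0.28, adjusted p = 2.85e-10 by edgeR) in WT and 4.46 (SE 0.29, adjusted p = 8.09e-11 by edgeR) in Mcu-/- cells. The genotypes given zymosan differed by 0.92 on the log2 scale (SE 0.23, adjusted p = 0.00246 by edgeR), from 1055 ± 61.3 in WT (n = 5) to 1989 ± 63.7 in Mcu-/- cells (n = 3). The difference of the 2 zymosan responses depended on replicate 4, which held the 189. It was 0.49 (SE 0.40, adjusted p = 0.355 by edgeR) with all libraries and 1.12 (SE 0.17, adjusted p = 7.2e-07 by edgeR) without it.

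**Figure D1:**
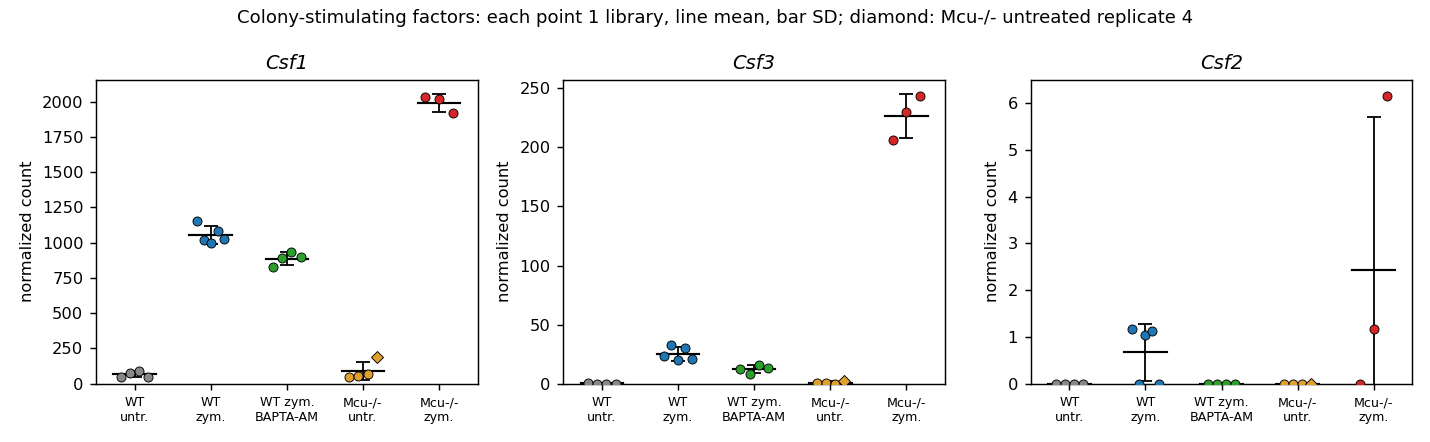
Normalized counts (vertical axes, from 0, with a scale of its own for each gene) of Csf1, Csf3 and Csf2 in each library, by group. Points are libraries, horizontal lines means and bars SD, and the diamond is untreated Mcu-/- replicate 4. Csf1 and Csf3 were near the axis without zymosan and highest in Mcu-/- cells with it, whereas Csf2 stayed within 6.15 normalized counts.

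Csf3 (chr11:98701263-98703629), which encodes G-CSF, showed the largest difference between the genotypes among the members. It had 23.5, 33.0, 19.98, 30.5 and 20.6 normalized counts in WT libraries with zymosan and 206, 230 and 243 in Mcu-/- libraries with zymosan. In untreated libraries it was at or under 3 counts, with 1, 0, 0 and 0 in WT and 1, 1, 0 and 3 in Mcu-/- cells. The stimulated groups did not overlap with the untreated groups or with each other. The log2 fold change between the genotypes with zymosan was 3.14 (SE 0.22, adjusted p = 2.40e-09 by edgeR), from 25.5 ± 5.93 (n = 5) to 226 ± 18.6 (n = 3). The response to zymosan was called in both genotypes (adjusted p = 3.71e-09 by edgeR in WT and 3.87e-13 in Mcu-/- cells). Its size rests on few counts in the untreated groups, so it is given as a ratio of pooled, depth-scaled counts with an exact 95% interval for counting error only. The ratio was 109 (19.2 to 4355) in WT, from 115 counts against 1. It was 238 (101 to 734) in Mcu-/- cells, from 604 counts against 5. Leaving out replicate 4 made it 455 (125 to 3767), from 604 counts against 2. These intervals overlap, and the difference of the responses was not called (adjusted p = 0.636 by edgeR, and 0.385 without replicate 4).

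Csf2, which encodes GM-CSF, was not quantifiable at this depth. It had 0 counts in the 12 libraries without zymosan or with BAPTA-AM, 1, 0, 1, 1 and 0 counts in WT libraries with zymosan and 0, 1 and 6 in Mcu-/- libraries with zymosan. The library with 6 counts exceeded the floor of 3 counts. An exact two-sided permutation test of its normalized counts gave p = 0.238 for zymosan against untreated in WT, 0.286 in Mcu-/- cells, 0.429 between the genotypes with zymosan and 0.238 for BAPTA-AM against none with zymosan. Each arrangement of the libraries makes up 0.00794, 0.0286, 0.0179 and 0.00794 of all arrangements in these designs, in the same order. The two-sided p counted both tails, so the smallest p a design allows is larger than this share. Zymosan against untreated in Mcu-/- cells could therefore not reach the threshold used for calls, whatever the counts. Csf2 shares its interval, chr11:54247271-54249667 in mm10, with Gm12223 on the opposite strand, and whether counting used strand is not given in the sources used here.

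The marker list of fibroblasts, which are known to make CSF-1 and G-CSF, was highest in Mcu-/- libraries with zymosan, as were Csf1 and Csf3. Its 6 genes summed to 2.67 to 4.11 CPM in untreated WT libraries, 4.71 to 6.68 in WT libraries with zymosan, 4.00 to 4.75 with BAPTA-AM and 44.0 to 52.3 in Mcu-/- libraries with zymosan. Untreated Mcu-/- libraries had 1.10 to 28.3 CPM, the highest in replicate 4. That library had 189 normalized counts of Csf1 and 3 counts of Csf3. Between the genotypes with zymosan 3 of the 3 genes tested were called higher, Col1a1, Col1a2 and Col3a1 (31.8% of all genes). With zymosan in WT cells 0 of these 3 genes were called, where 32.4% of all genes were called higher. Without replicate 4 all 3 were called higher in WT cells (37.2% of all genes). Pdgfra, Dcn and Lum were near 0 in every group. Dendritic cell markers summed to at most 17.3 CPM in WT and to 34.3 to 37.1 CPM in Mcu-/- libraries with zymosan. There 1 of 3 genes tested, Itgax, was called higher than in WT (31.8% of all genes). The part of these cells in the levels of Csf1 and Csf3 was not tested.

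Csf1r, the receptor of CSF-1 and itself among the macrophage markers, moved apart in the 2 genotypes. It lies at chr18:61100598-61132149 in mm10, where Hmgxb3 overlaps it on the opposite strand, so that some reads could belong to either gene if counting did not use strand. In WT cells it had 17271, 18120, 18078 and 17037 normalized counts untreated and 11562, 12088, 11745, 10855 and 11731 with zymosan. In Mcu-/- cells it had 17751, 16781, 17426 and 26182 untreated and 21895, 22827 and 22066 with zymosan. The WT groups did not overlap, and the Mcu-/- libraries with zymosan lay above all other libraries except untreated replicate 4. The log2 fold change with zymosan was −0.60 in WT (SE 0.09, adjusted p = 1.01e-05 by edgeR). The value in Mcu-/- cells was 0.19 (SE 0.11, adjusted p = 0.113 by edgeR), and 0.36 (SE 0.04, adjusted p = 6.09e-12 by edgeR) without replicate 4. The sign in Mcu-/- cells depended on the scaling, since library totals gave −0.33 (adjusted p = 0.00319 by edgeR). The difference of the responses was called in either case, at 0.79 (SE 0.14, adjusted p = 0.000392 by edgeR) and 0.97 (SE 0.05, adjusted p = 1.49e-20 by edgeR). With zymosan the genotypes differed by 0.94 on the log2 scale (SE 0.10, adjusted p = 4.41e-07 by edgeR), from 11596 ± 456 in WT to 22263 ± 496 in Mcu-/- cells.

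The other macrophage markers moved in both directions, some with Csf1r and some against it. Between the genotypes with zymosan 4 of the 8 listed, Csf1r, Cd14, Cd68 and Fcgr1, were called higher in Mcu-/- cells (31.8% of all genes). Another 3, Adgre1, Itgam and Lyz2, were called lower (30.3% of all genes). Without replicate 4 it was 5 higher, with Mertk added, and 3 lower (36.4% and 33.7% of all genes). The sum of the 8 was 16080 to 16393 CPM in WT and 10408 to 10767 in Mcu-/- libraries with zymosan. Of it Lyz2 held 8183 CPM on average in WT and 3242 in Mcu-/- libraries.

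**Figure D2:**
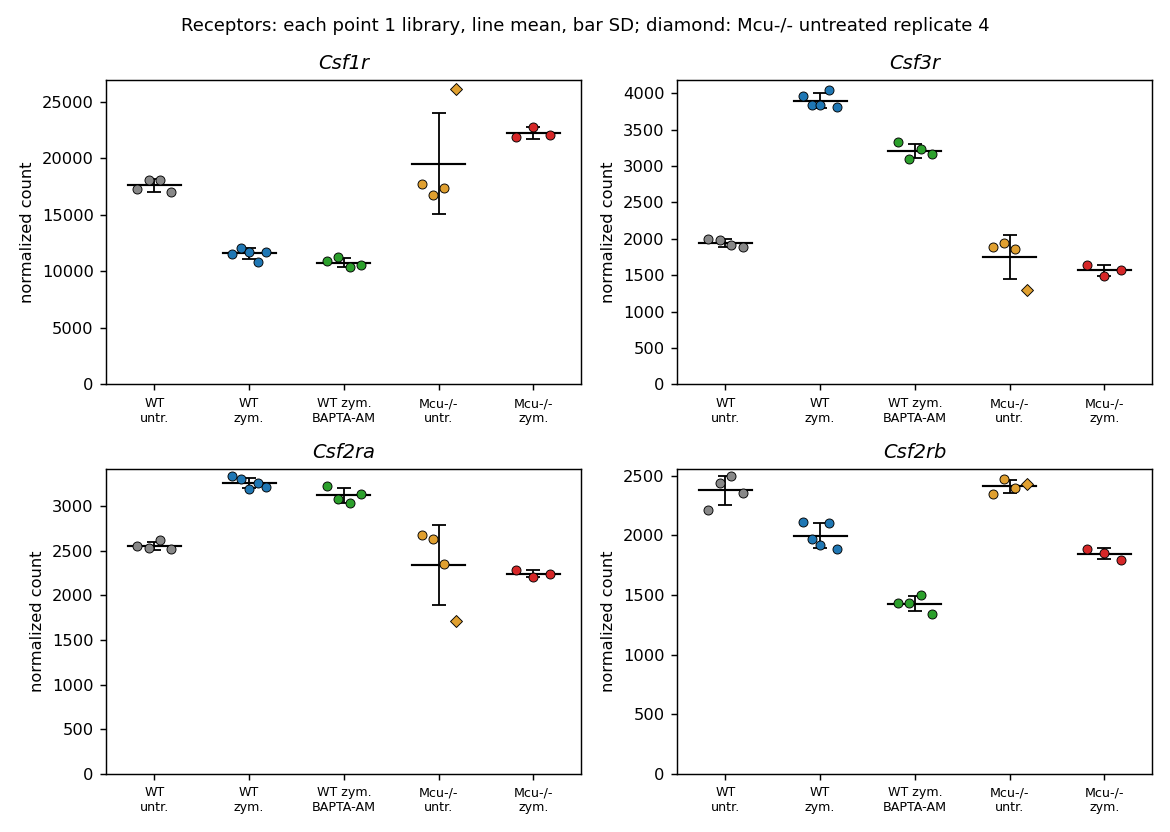
Normalized counts (vertical axes, from 0) of the receptor genes Csf1r, Csf3r, Csf2ra and Csf2rb in each library, by group. Points are libraries, horizontal lines means and bars SD, and the diamond is untreated Mcu-/- replicate 4. Csf3r was highest in WT cells with zymosan and lowest in Mcu-/- replicate 4, and the means of Csf1r and Csf2rb were lowest in WT cells with zymosan and BAPTA-AM.

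Csf3r (chr4:126024550-126044440), the receptor of G-CSF, rose with zymosan in WT and did not rise in Mcu-/- cells. It had 2003, 1980, 1909 and 1889 normalized counts in untreated WT libraries and 3960, 3833, 3835, 4049 and 3811 with zymosan. Untreated Mcu-/- libraries had 1889, 1945, 1858 and 1301 and those with zymosan 1639, 1496 and 1565. No WT library with zymosan overlapped any other group. WT cells thus gained 1.00 on the log2 scale (SE 0.08, adjusted p = 1.79e-09 by edgeR). Mcu-/- cells gave −0.16 (SE 0.09, adjusted p = 0.126 by edgeR), and −0.28 (SE 0.04, adjusted p = 1.61e-07 by edgeR) without replicate 4. The difference of the responses was −1.16 (SE 0.12, adjusted p = 1.57e-06 by edgeR). Mcu-/- cells given zymosan differed from WT by −1.31 (SE 0.09, adjusted p = 2.19e-09 by edgeR), so that Csf3 was higher and its receptor lower in the same Mcu-/- libraries. The 9 neutrophil markers summed to 3.61 to 5.58 CPM in WT and 0.452 to 0.589 in Mcu-/- libraries with zymosan, and 5 of them had at most 3 counts in every library. Their part in the level of Csf3r, which was 185 to 196 CPM in these WT libraries, was not tested.

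Csf2ra (chr19:61223957-61228429), the ligand-binding chain for GM-CSF, followed Csf3r with smaller differences. It had 2551, 2529, 2618 and 2522 normalized counts in untreated WT libraries and 3335, 3305, 3192, 3262 and 3212 with zymosan. Mcu-/- libraries had 2679, 2636, 2348 and 1711 untreated and 2283, 2208 and 2235 with zymosan. The WT groups did not overlap, and all 3 Mcu-/- libraries with zymosan lay below every WT library. Zymosan changed it by 0.35 on the log2 scale in WT (SE 0.08, adjusted p = 0.00114 by edgeR). In Mcu-/- cells it was −0.06 (SE 0.10, adjusted p = 0.556 by edgeR), and −0.19 (SE 0.04, adjusted p = 8.2e-05 by edgeR) without replicate 4. The difference of the responses was −0.42 (SE 0.13, adjusted p = 0.018 by edgeR), and the genotypes differed with zymosan by −0.54 (SE 0.09, adjusted p = 8.74e-05 by edgeR).

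Csf2rb, the signalling chain shared by the GM-CSF, IL-3 and IL-5 receptors, fell in both genotypes. It had 2216, 2437, 2498 and 2360 normalized counts in untreated WT libraries and 2116, 1974, 1916, 2101 and 1887 with zymosan. The Mcu-/- libraries had 2349, 2472, 2396 and 2429 untreated and 1890, 1854 and 1797 with zymosan. Replicate 4 lay inside the range of its group for this gene. On the log2 scale the change was −0.25 in WT (SE 0.04, adjusted p = 5.16e-05 by edgeR) and −0.38 in Mcu-/- cells (SE 0.05, adjusted p = 1.86e-06 by edgeR), and the difference of the responses was not called (adjusted p = 0.126 by edgeR). The genotypes with zymosan overlapped, and their difference of −0.11 (SE 0.05, adjusted p = 0.0486 by edgeR) lost its call with DESeq2's size factors (adjusted p = 0.0540 by edgeR) and when any of 13 of the 20 libraries was left out (0.0521 to 0.165).

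Csf2rb2 behaved differently from its relative. It had 613, 685, 632 and 628 normalized counts in untreated WT libraries, 672, 628, 611, 611 and 581 in WT libraries with zymosan and 1929, 1976 and 1874 in Mcu-/- libraries with zymosan. Untreated Mcu-/- libraries had 685, 635, 678 and 2369. The Mcu-/- libraries with zymosan and replicate 4 lay above all other libraries. With zymosan, Mcu-/- cells exceeded WT cells by a log2 value of 1.63 (SE 0.30, adjusted p = 0.000137 by edgeR), while in WT zymosan gave −0.04 (SE 0.29, adjusted p = 0.900 by edgeR). The response in Mcu-/- cells was 0.82 (SE 0.31, adjusted p = 0.0231 by edgeR), and 1.53 (SE 0.05, adjusted p = 3.17e-26 by edgeR) without replicate 4. That call, made with all 20 libraries, was lost when untreated Mcu-/- replicate 1, 2 or 3 or the Mcu-/- zymosan library of column 4 was left out (adjusted p = 0.0537 to 0.0728 by edgeR) and when the 2 groups were fitted alone (0.155). With library totals the value was 0.32 (adjusted p = 0.309 by edgeR).

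Csf2rb at chr15:78325752-78353847 and Csf2rb2 at chr15:78282507-78305721 in mm10 lie 20030 bases apart on opposite strands. Of the windows of 100 bases along the main Csf2rb2 transcript, 7.20% occur without mismatch in a Csf2rb transcript. The share is 3.59% for windows of 150 bases. Read pairs that lie wholly within such stretches could belong to either gene. Csf2rb2 made up 20.2% to 24.2% of the counts of both genes in WT libraries without BAPTA-AM, 50.5% to 51.6% in Mcu-/- libraries with zymosan and 49.4% in untreated Mcu-/- replicate 4. The sum of both genes was called higher in Mcu-/- than in WT cells with zymosan (log2 fold change 0.53, adjusted p = 0.000410 by edgeR), opposite to Csf2rb alone.

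**Figure D3:**
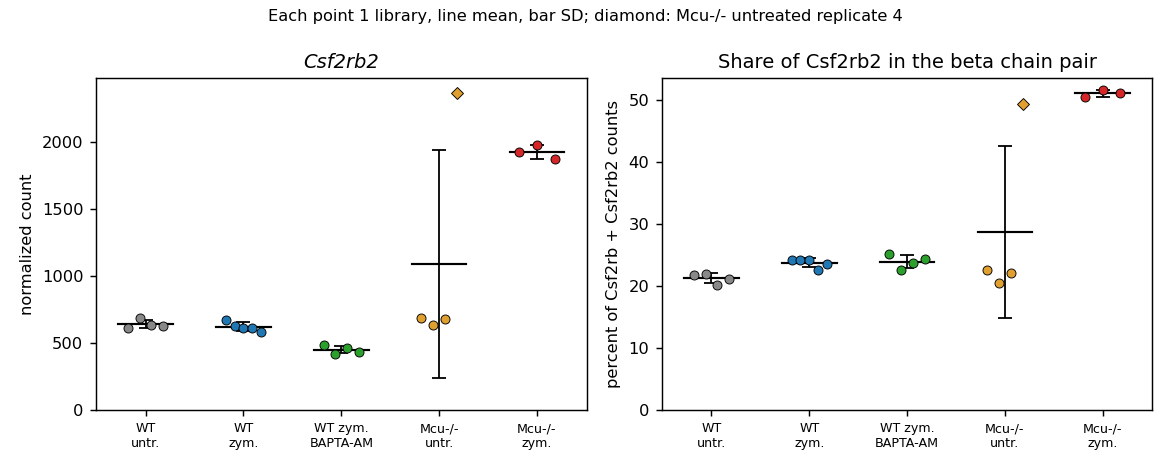
Left, normalized counts of Csf2rb2 in each library; right, the percent of the counts of Csf2rb and Csf2rb2 together that fell on Csf2rb2, both from 0 and by group. Points are libraries, lines means, bars SD, and the diamond is untreated Mcu-/- replicate 4. In Mcu-/- cells with zymosan and in replicate 4 Csf2rb2 took about the same share as Csf2rb, 49.4% to 51.6%.

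Over the members, Mcu-/- cells with zymosan differed from WT cells with zymosan in all 6 genes tested, 3 higher (Csf3, Csf1r and Csf1) and 3 lower (Csf3r, Csf2ra and Csf2rb), in a comparison that called 31.8% of all genes higher and 30.3% lower. Of these calls, that of Csf2rb (adjusted p = 0.0486 by edgeR) was lost by DESeq2's Wald test (adjusted p = 0.0537). It was also lost in 13 of the 20 fits that left out 1 library. Without replicate 4 the counts were again 3 and 3, against 36.4% and 33.7% of all genes. The difference of the zymosan responses was called higher for 1 member, Csf1r, and lower for 2, Csf3r and Csf2ra, against 15.2% and 20.01% of all genes. Without replicate 4 it was called higher for 2 members, with Csf1 added, and lower for the same 2, against 31.05% and 29.3% of all genes.

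Without zymosan 0 of the 6 members tested were called between the genotypes by edgeR (0 at an unadjusted p under 0.05 and 0 by DESeq2), where 0.128% of all genes were called higher and 0.222% lower. Without replicate 4 the count was also 0, against 1.53% and 1.83% of all genes, and the log2 fold changes ran from −0.20 for Csf1 to 0.02 for Csf2rb apart from Csf3, which was at the floor. Replicate 4 differed from replicates 1 to 3 by a ratio of 3.21 for Csf1, 1.51 for Csf1r, 3.56 for Csf2rb2, 0.670 for Csf2ra, 0.686 for Csf3r and 1.01 for Csf2rb. Its Csf1, at 189 normalized counts, lay above all other untreated libraries and below every library with zymosan. Its Csf1r, Csf2ra, Csf3r and Csf2rb2 also lay outside the range of the other untreated libraries, on the side of the Mcu-/- libraries with zymosan. The part of whatever sets this library apart in the differences between genotypes with zymosan was not tested.

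BAPTA-AM lowered 3 of the 6 members tested in zymosan-treated WT cells, Csf3, Csf2rb and Csf3r, and raised 0, where 6.33% of all genes were called lower and 6.43% higher. Without Mcu-/- replicate 4, which belongs to neither group but widens the common spread, 5 members were called lower, Csf1 and Csf1r in addition, against 16.5% of all genes lower and 15.3% higher. Against untreated cells, BAPTA-AM loaded cells with zymosan had 4 members higher, Csf1 at a log2 fold change of 3.72, Csf3r at 0.72, Csf2ra at 0.29 and Csf3, and 2 lower, Csf1r at −0.71 and Csf2rb at −0.74, where 31.9% of all genes were called higher and 34.2% lower. The counts were also 4 and 2 without Mcu-/- replicate 4, against 36.7% and 39.2% of all genes, and library totals turned Csf2ra to −0.14. The pooled ratio for Csf3 was 52.3 (8.89 to 2112), from 43 counts against 1.

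**Figure D4:**
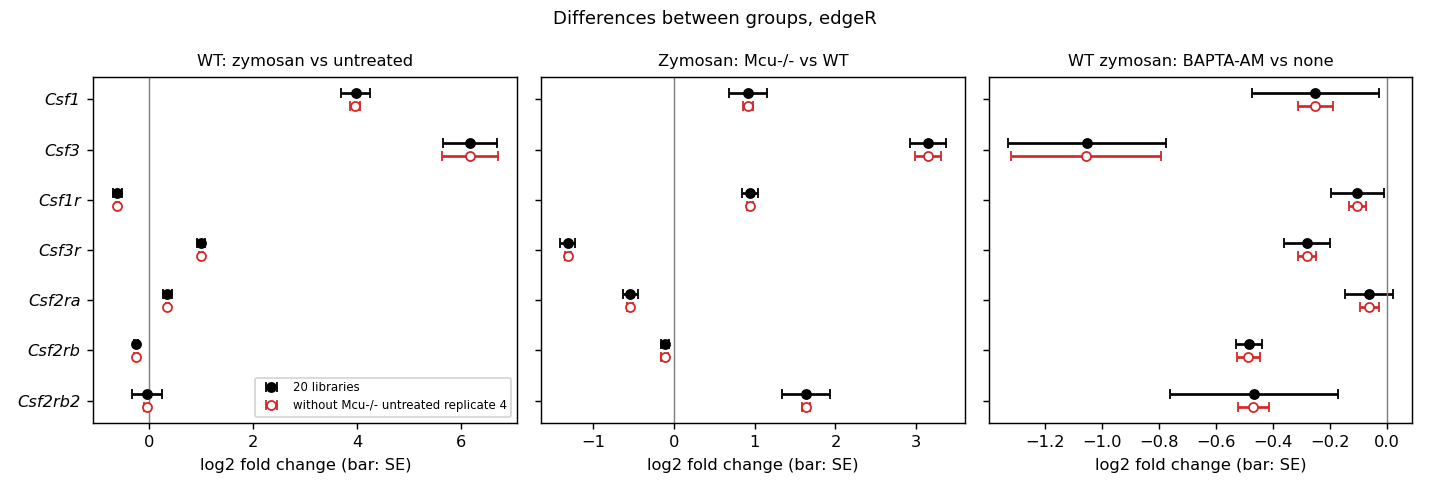
Log2 fold changes from edgeR (horizontal axes, each panel with its own scale, bars SE) of 6 members and Csf2rb2 for WT zymosan against untreated, Mcu-/- against WT with zymosan and BAPTA-AM against none with zymosan. Filled points come from all 20 libraries and open points from the fit without untreated Mcu-/- replicate 4. Leaving this library out narrowed most bars and left the values of these 3 comparisons nearly in place.

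Csf2rb showed the most regular decrease with BAPTA-AM. It had 1436, 1436, 1496 and 1345 normalized counts with BAPTA-AM, below every other library of the series. The log2 fold change against zymosan alone was −0.49 (SE 0.04, adjusted p = 8.87e-07 by edgeR). Csf3 had 12.1, 7.88, 15.7 and 13.6 normalized counts with BAPTA-AM, below every WT library with zymosan alone. Its log2 fold change was −1.05 (SE 0.28, adjusted p = 0.0162 by edgeR), which became −0.89 (adjusted p = 0.0663 by edgeR) without BAPTA-AM replicate 2, the lowest library. Csf3r, with 3325, 3102, 3236 and 3166, also lay below all WT libraries with zymosan alone. Its log2 fold change was −0.28 (SE 0.08, adjusted p = 0.0252 by edgeR, and 3.3e-09 without Mcu-/- replicate 4). The call was lost when WT zymosan replicate 1 or 4 or BAPTA-AM replicate 2, 3 or 4 was left out (adjusted p = 0.0508 to 0.0763 by edgeR) and with library totals (0.105).

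Csf1 had 825, 892, 933 and 896 normalized counts with BAPTA-AM, without overlap with zymosan alone. Its log2 fold change of −0.25 was not called with all libraries (SE 0.22, adjusted p = 0.556 by edgeR) and was called without Mcu-/- replicate 4 (SE 0.06, adjusted p = 0.00112 by edgeR). Csf1r had 10958, 11240, 10401 and 10558 and overlapped with zymosan alone, at a log2 fold change of −0.10 (adjusted p = 0.559 by edgeR, and 0.00603 without replicate 4). Csf2ra had 3230, 3076, 3039 and 3140 and overlapped too, at −0.06 (adjusted p = 0.728 by edgeR, and 0.155 without replicate 4). Csf2rb2, with 481, 419, 462 and 433, fell below every WT library with zymosan alone, at −0.47 (adjusted p = 0.358 by edgeR, and 5.7e-09 without replicate 4).

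The pathways on both sides of the receptors changed as well. Genes were taken from 6 lists written from general knowledge. Of the 26 kinases, adaptors and STATs near the receptors, zymosan raised 16 and lowered 4 in WT cells (32.4% and 36.8% of all genes), with a median log2 fold change of 0.39 against −0.04 for all genes. Src, a kinase that CSF1R engages, rose from 28.5 ± 5.7 to 289 ± 23.9 normalized counts, a log2 fold change of 3.34. Jak2, the kinase bound to the common beta chain, rose by 2.42 and Stat5a, its target, by 2.42. With zymosan Mcu-/- cells had 6 of these genes higher and 15 lower than WT (31.8% and 30.3% of all genes), with a median of −0.20. Fgr, a Src family kinase of myeloid cells, was lower by a log2 fold change of −2.85, at 201 ± 12.8 against 1444 ± 24.9. The catalytic subunits of PI3 kinase moved apart, with Pik3cd at −1.43 and Pik3cb at 1.34. BAPTA-AM lowered 6 and raised 1 (6.33% and 6.43% of all genes), and 15 and 2 without Mcu-/- replicate 4 (16.5% and 15.3% of all genes), among them Jak2 at −0.43, Fyn at −0.43 and Gab1 at −0.64.

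Negative regulators of cytokine receptors included the strongest increases of these lists. Of 14 genes tested of 16, zymosan raised 7 and lowered 6 in WT cells (32.4% and 36.8% of all genes), with a median of 0.13. Socs3, an inhibitor of the G-CSF receptor, rose from 202 ± 10.8 to 20368 ± 512 normalized counts, a log2 fold change of 6.66. Socs1 rose by 7.43 and Cish, an inhibitor induced by STAT5, by 5.42. Between the genotypes with zymosan 1 was called higher, Spry2 at 1.06, and 5 lower, with Dok3 at −1.90 and Sh2b3 at −0.90 (31.8% and 30.3% of all genes). Without replicate 4 it was 5 and 5 (36.4% and 33.7% of all genes). BAPTA-AM lowered 4 and raised 1 (6.33% and 6.43% of all genes), and 8 and 2 without replicate 4 (16.5% and 15.3%), with Cish at −0.82 and Socs3 at −0.38.

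**Figure D5:**
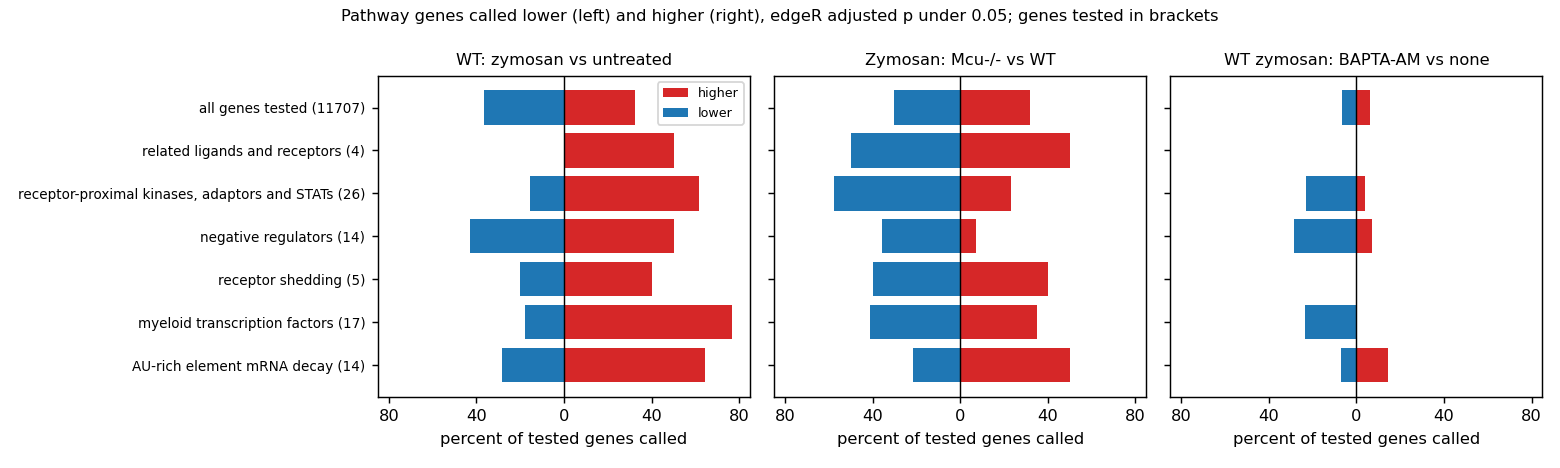
Percent of the tested genes of each pathway list called higher (to the right, red) or lower (to the left, blue) by edgeR, with all genes at the top and the number of genes tested in brackets, for 3 comparisons. Most lists had more genes called higher than lower with zymosan in WT cells, such as 16 against 4 for the kinases, adaptors and STATs, and with BAPTA-AM the negative regulators had 4 of 14 genes lower and 1 higher, against 6.33% and 6.43% of all genes.

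CSF1R and other receptors can be cut from the cell surface by ADAM17 with its partner iRhom2, encoded by Rhbdf2. Of 5 shedding genes zymosan raised 2 in WT cells, Rhbdf2 by 2.33 and Adam17 by 1.06 on the log2 scale, and lowered 1, Adam10 at −0.64, with a median of 1.06 (32.4% and 36.8% of all genes). Without Mcu-/- replicate 4 it was 3 higher and 1 lower (37.2% and 41.3%). With zymosan Mcu-/- cells had lower Rhbdf2 (−0.43) and Adam17 (−0.18) and higher Adam10 (0.56), with 2 higher and 2 lower in all (31.8% and 30.3% of all genes). BAPTA-AM changed 0 of the 5 by edgeR (0 at an unadjusted p under 0.05 and 0 by DESeq2), where 6.43% and 6.33% of all genes were called higher and lower, and 2 were lower without Mcu-/- replicate 4 (16.5% of all genes).

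Transcription factors of myeloid cells were changed by zymosan in 16 of 17 genes tested in WT cells. Of these, 13 were higher and 3 lower (32.4% and 36.8% of all genes), and the median of the list was 0.77. Their part in the levels of the receptor genes was not tested. Egr1, an early response gene downstream of CSF-1, rose by 2.53, whereas Cebpa, a factor of the granulocyte and monocyte lineages, fell by 3.88 from 3782 ± 151 to 256 ± 24.9 normalized counts. Between the genotypes with zymosan 6 were higher and 7 lower (31.8% and 30.3% of all genes), and 8 and 9 without replicate 4 (36.4% and 33.7%), with Cebpd at −1.89, Cebpb at −1.28 and Tfec, a partner of MITF, at 1.69. BAPTA-AM lowered 4 and raised 0 (6.33% and 6.43% of all genes), and 11 and 1 without Mcu-/- replicate 4 (16.5% and 15.3%), with Irf8 at −0.38, Mitf at −0.36 and Maf at −0.35.

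Genes listed for AU-rich element decay, among them general factors of mRNA decay, were raised in 9 and lowered in 4 of 14 cases by zymosan in WT cells (32.4% and 36.8% of all genes), with a median of 0.43. Their bearing on the ATTTA stretches printed above was not tested. Zfp36, encoding tristetraprolin, which binds AU-rich elements, rose from 1552 ± 91.0 to 13174 ± 403 normalized counts, a log2 fold change of 3.08. Its relative Zfp36l2 fell by 1.91 and the decapping enzyme Dcp2 rose by 1.77. With zymosan Mcu-/- cells had 7 higher and 3 lower than WT (31.8% and 30.3% of all genes), and 9 and 3 without replicate 4 (36.4% and 33.7%), among them Dcp2 at 0.52, Cnot1 at 0.50 and the RNase gene Zc3h12a at −0.74. BAPTA-AM lowered 1, Zfp36l1 at −0.81, and raised 2, Tnpo1 at 0.39 and Zfp36l2 at 0.20 (6.33% and 6.43% of all genes), and without Mcu-/- replicate 4 it lowered 3 and raised 4 (16.5% and 15.3%).

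Of 10 related ligands and receptors 4 could be tested. Il3ra, the IL-3 receptor alpha chain, rose with zymosan in WT cells by 0.53 and was lower in Mcu-/- than in WT cells with zymosan, at −0.32. Kitl, encoding stem cell factor, was higher in Mcu-/- cells with zymosan at 275 ± 21.6 normalized counts against 69.6 ± 5.9, a log2 fold change of 1.98 (SE 0.46, adjusted p = 0.00108 by edgeR). Il34, the other ligand of CSF1R, did not pass the filter on low counts.

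The genes whose log2 CPM over the 20 libraries was most like that of a member were ranked among 8350 genes, as a description, since the 5 groups and their scaling are common to all genes. For Csf1 they were Spred1, Ankrd17 and Ccl3 (Pearson r = 0.995 each). For Csf3 they were Sptan1, Adamts4 and Slc4a7 (r = 0.988 each). For Csf1r they were Slc37a2 (r = 0.994), Ier5 and Hip1 (r = 0.992 each), and for Csf3r Tmem131 (r = 0.991) and Emd (r = 0.982). For Csf2ra they were Ebi3 (r = 0.984), Arpc5 (r = 0.981) and Jpt1 (r = 0.980). Csf2rb had the weakest neighbours, Cmklr1 (r = 0.946), Trim44 (r = 0.941) and Tiam1 (r = 0.935).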

How the data were processed

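Counts of reads per gene were deposited by the authors as 1 table without normalization, made with cutadapt, STAR on mm10 and HTSeq. The annotation and strand setting of the counting are not given in the sources used here. The 3 Mcu-/- zymosan columns are numbered 3 to 5 and were assigned to their group. The main tool was edgeR 4.0.16 in R 4.3.3 (filterByExpr, TMM, quasi-likelihood fit of all 20 libraries, 1 coefficient per group, no covariate) and Benjamini-Hochberg adjustment over 11707 genes, with DESeq2 1.42.0 as an alternative. The SE is the log2 fold change divided by the root of F. Csf2 did not pass the filter and was compared by exact permutation tests. Total counts were 14.4 to 24.0 M per library, and the TMM-scaled totals on which CPM rests ran from 15737561 to 28129979. The members and lists were chosen with earlier results of these data known. From each list up to 3 called genes with the largest change and at least 10 CPM were named, with Csf2rb2 always. The results of 2 genes that these rules name are not reported here. The ATTTA search and the count of windows common to Csf2rb and Csf2rb2 were added after the data were seen. Other settings tried were library totals, DESeq2's size factors, other filters, DESeq2's Wald test, groups alone, a minimum log2 fold change of 1, a replicate block and leaving out each library. Scripts were tested on simulated data.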

Additional observations from a re-analysis of the deposited data

Results flagged for a closer look

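Within a group of 4 libraries, replicate 4 of untreated Mcu-/- cells was set far from the others for 3 members. The gap to its nearest neighbour made up 0.847 of the group's range for Csf1 (highest library), 0.897 for Csf1r (highest library) and 0.866 for Csf3r (lowest library), against a critical value of 0.829. Of 22 sets of a member and a group examined, chance alone would set about 1 in 20 apart.

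The zymosan response differed between the genotypes by the test of that difference for 3 receptor genes. On the log2 scale, Mcu-/- minus WT, it was 0.79 for Csf1r, −0.42 for Csf2ra and −1.16 for Csf3r. Over the whole set of genes, the same test made calls for 15.2% on the higher side and 20.01% on the lower side. Such a call was therefore common in this comparison.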

How the results depend on the processing

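A minimum absolute log2 fold change of 1 left 0 members lower with zymosan in either genotype, 2 higher and 0 lower with BAPTA-AM against untreated, 1 higher and 1 lower between genotypes with zymosan, 1 lower with BAPTA-AM against zymosan alone, and 0 higher and 1 lower for the difference of responses; the summed beta chains (−0.69, 0.53 and −0.48) no longer passed. At least 10 counts in every library removed Csf3, leaving 1 member higher with zymosan in Mcu-/- cells. Fits of the compared groups alone called 5 members lower with BAPTA-AM and the summed beta chains lower with zymosan in WT (−0.20). The share of all genes called moved with the settings too. For WT zymosan against untreated it was 69.1% in the main fit, 79.5% with groups alone and 65.6% with the replicate block. It was 66.4% to 78.5% when 1 library was left out. No share of all genes was computed for the minimum log2 fold change. Library totals turned Csf2ra with zymosan in WT to −0.14, and with BAPTA-AM against untreated to −0.14, Csf1r in Mcu-/- cells to −0.33 and Csf2rb between untreated genotypes to −0.00098. They also made Csf2ra (−0.59) and Csf3r (−0.69) called lower with zymosan in Mcu-/- cells (adjusted p = 6.39e-05 and 7.19e-06 by edgeR) and ended the call of Csf3r with BAPTA-AM (0.105). Leaving out 1 library gave 2 to 3 members higher and 1 to 3 lower with zymosan in Mcu-/- cells, 2 to 3 lower between genotypes with zymosan, 1 to 5 lower with BAPTA-AM (1 without BAPTA-AM replicate 2 and 5 without untreated Mcu-/- replicate 4) and 1 to 2 higher for the difference of responses. The summed beta chains ranged from −0.23 to −0.18 with zymosan in WT, 0.044 to 0.30 in Mcu-/- cells and 0.25 to 0.50 for the difference. Ranges that held a change of sign were −0.19 to 0.0060 for Csf2ra with zymosan in Mcu-/- cells (positive without untreated replicate 1). Between untreated genotypes they were −0.20 to 0.62 for Csf1 and −0.026 to 0.21 for Csf1r (both negative without Mcu-/- replicate 4) and −0.012 to 0.045 for Csf2rb (negative without WT replicate 1). Csf2 between genotypes with zymosan ranged from −0.088 to 2.99 normalized counts. The cause was not tested.

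The replicate number as a block, fitted on 17 libraries, left 1 member lower with BAPTA-AM, Csf2rb, with Csf3 at an adjusted p of 0.0917 and Csf3r at 0.0752, and changed no other count by over 1.5 times. Same-numbered libraries did not deviate together (24 pairs, r from −0.055 to 0.061, and 4 of 16 libraries closest to their own number). This check weighted genes of low counts, with their counting noise, like all others. It therefore cannot exclude that same-numbered libraries shared a mouse or culture. Depth limits Csf2 and untreated Csf3, which had at most 3 counts in untreated libraries.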
